A study of Mus musculus with 4 samples.

Results

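ORR1 elements are retrotransposons of the rodent genome that belong to the MaLR group (mammalian apparent LTR retrotransposons). Their copies were taken from the deposited counts of transposable elements (TEs) by name alone, as every repeat whose name begins with ORR1, and comprised 184967 of 3658072 listed TE copies and 29 of 1072 repeat names. Of these names, 14 stood for the long terminal repeat (LTR), with 166375 copies, and 15 ended in -int and stood for the internal part between the LTRs, with 18592 copies. At least 1 count was found on 21143 ORR1 copies, and 6550 had at least 5 counts over the 4 libraries. These 6550 copies, 5349 of LTRs and 1201 of internal parts, held 90.0% of all ORR1 counts and were compared singly. They are not replicates of a genotype, since copies of a name share much of their sequence and come from the same RNA.

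MaLR elements are relatives of the ERVL retroviruses. They carry LTRs, which contain a promoter and a polyadenylation signal, around an internal part that encodes no protein of its own, so that they are thought to have spread with the enzymes of ERVL elements. The letters from A to G run from the youngest to the oldest ORR1 subfamilies, and MaLR LTRs are known as promoters in oocytes and early mouse embryos.

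RNA-seq had been done on mouse embryonic stem cells (ESCs) of the C57BL/6 strain that were wild type (WT, line N12) or lacked the telomerase RNA gene in the third generation (G3 *Terc*-/-, line F35), with 2 libraries of poly(A) RNA per genotype. The sample labels give G3 for the WT line as well. Both lines were grown on feeder cells in medium with serum and leukemia inhibitory factor. Each genotype was represented by 1 line, so that an effect of genotype and a difference between lines cannot be told apart. The comparison asks whether ORR1 transcripts differ between ESCs with and without telomerase.

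The depth of TE counts was 2058932 and 2104586 for WT and 2065466 and 1805047 for *Terc*-/- ESCs. *Terc* (gene identifier 21748) had 7 and 2 counts in WT and 0 in both *Terc*-/- libraries, a value that by counting error alone leaves room for as many as 3 counts. The gene had too few counts in these poly(A) libraries to be tested, so its values are a weak check of the genotype. All 10 ESC markers listed were detected, and *Pou5f1*, the core pluripotency factor, had 20359 and 20711 counts in WT and 26812 and 22309 in *Terc*-/- ESCs. Of the 10, 8 were higher and 2 lower in *Terc*-/- ESCs by adjusted p at any fold (edgeR, Benjamini-Hochberg), where 21.7% of all genes were higher and 21.8% lower, with log2 fold changes from −0.79 for *Dppa5a* and −0.32 for *Utf1* to 1.13 for *Nanog*. The list of 12 feeder fibroblast markers summed to 184 and 124 CPM (counts scaled to library size, here of the gene counts) in WT and to 214 and 149 in *Terc*-/- ESCs. Both first replicates were thus higher than both second replicates. The most abundant feeder marker was *Col1a1*, at 60.6 and 35.5 CPM in WT and 63.8 and 43.0 CPM in *Terc*-/- ESCs, and no marker of the list was at 0 in all libraries. Of the 10 feeder markers tested, *Col3a1*, *Thy1*, *Fbn1* and *Dcn* were higher in *Terc*-/- ESCs by the same rule, which makes 4, and 0 were lower. The part of the feeder markers in the results on ORR1 was not tested.

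ORR1 elements took a larger share of the TE counts in *Terc*-/- than in WT ESCs, and the gain was larger in relative terms for the internal parts than for the LTRs. All ORR1 names together held 3.02% and 3.01% of the TE counts in WT and 3.46% and 3.37% in *Terc*-/- ESCs. Both *Terc*-/- libraries lay above both WT libraries. The LTR names held 2.39% and 2.37% in WT and 2.61% and 2.53% in *Terc*-/- ESCs. Their mean went from 2.38% ± 0.0102 (SD, n = 2) to 2.57% ± 0.0535 (SD, n = 2), a ratio of 1.08. The internal parts held 0.628% and 0.632% in WT and 0.857% and 0.840% in *Terc*-/- ESCs, from a mean of 0.630% ± 0.00283 (SD, n = 2) to 0.849% ± 0.0118 (SD, n = 2), a ratio of 1.35. In all 3 sums the genotypes differed by more than the replicates of either genotype, but an exact two-sided permutation test of 2 against 2 libraries cannot give a p below 0.333, so the shares were not tested. In bulk RNA, more cells that transcribe ORR1 and more ORR1 RNA per cell cannot be told apart.

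Split by letter, the gain in share lay mainly in the youngest group. The internal parts of ORR1A held 0.370% and 0.375% of the TE counts in WT and 0.554% and 0.536% in *Terc*-/- ESCs, a ratio of 1.46, and the ORR1A LTRs held 0.696% and 0.691% in WT and 0.848% and 0.801% in *Terc*-/- ESCs, a ratio of 1.19. For the LTRs of ORR1B, ORR1C and ORR1D the ratios of the mean shares were 1.02, 1.02 and 1.00. They were 1.06 for ORR1E, 1.07 for ORR1F and 1.19 for ORR1G, so the order of the ratios did not follow the order of age. Among the internal parts, the ratio was 1.11 for ORR1B, 1.60 for ORR1C, 0.981 for ORR1D, 1.07 for ORR1E and 1.42 for ORR1F. The rise of ORR1C came from a single name, ORR1C1-int, and the ORR1F value rested on 340 counts in all.

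Counts were next summed by name, and 28 of the 29 ORR1 names had enough counts to be tested among 917 families, with levels given as TMM-scaled CPM of the TE counts. In *Terc*-/- ESCs, 4 ORR1 families were higher at a fold change over 1.5 and an unadjusted P under 0.05, all of them internal parts, where the share of all families called higher was 5.13%. The 4 families were ORR1A0-int, ORR1A1-int, ORR1A3-int and ORR1C1-int, and their adjusted p also passed 0.05 in edgeR (Benjamini-Hochberg over all families). No ORR1 family was lower at this cutoff, against 2.94% of all families. At any fold change and an unadjusted P under 0.05, 13 ORR1 families were higher and 4 lower in edgeR, where 18.2% of all families were higher and 18.1% lower. DESeq2 called 4 higher and 0 lower at the cutoff, and 11 higher and 2 lower at any fold. The shares of all families given here are from edgeR, so the DESeq2 counts have no background beside them. The median log2 fold change was 0.11 over the 28 ORR1 families and −0.0046 over all families, and 23 of the 28 were positive.

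ORR1A0-int, the internal part of the youngest subfamily, had 1691 and 1755 counts in WT and 3316 and 2794 in *Terc*-/- ESCs. Its level rose from 843 ± 7.91 to 1549 ± 30.6 CPM (SD, n = 2 each), by 0.88 on the log2 scale (SE 0.041, adjusted p = 1.19e-07 in edgeR with Benjamini-Hochberg adjustment). Both *Terc*-/- libraries were above both WT libraries by far more than the replicates differed. ORR1A3-int had 955 and 989 counts in WT and 1689 and 1477 in *Terc*-/- ESCs. Its level rose from 475 ± 3.74 to 804 ± 5.23 CPM (SD, n = 2 each), by 0.76 on the log2 scale (SE 0.051, adjusted p = 2.31e-06, edgeR and Benjamini-Hochberg). In both genotypes the replicates of ORR1A3-int lay close together.

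ORR1A1-int had 837 and 860 counts in WT and 1380 and 1126 in *Terc*-/- ESCs. Its level rose from 415 ± 0.951 to 635 ± 27.0 CPM (SD, n = 2 each), by 0.61 on the log2 scale (SE 0.059, adjusted p = 3.8e-05, edgeR and Benjamini-Hochberg). The *Terc*-/- libraries stood above the WT libraries, but the rise was just past the cutoff of 0.585 on the log2 scale, and without *Terc*-/- replicate 1 it was 0.57 and missed it. ORR1C1-int had 903 and 882 counts in WT and 1628 and 1450 in *Terc*-/- ESCs. Its level rose from 437 ± 14.6 to 782 ± 15.2 CPM (SD, n = 2 each), by 0.84 on the log2 scale (SE 0.055, adjusted p = 1.83e-06, edgeR and Benjamini-Hochberg). This rise belonged to a pair of copies. The copies numbered 728 and 729 held 87.0% of the counts of ORR1C1-int, and without them, an alternative chosen after seeing the data, the log2 fold change was 0.18.

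For the other called families, the rise did not rest on the copies with the most counts. The top copy held 16.0% of the counts of ORR1A0-int, 12.3% of those of ORR1A1-int and 8.20% of those of ORR1A3-int. Without it their log2 fold changes were 0.89, 0.69 and 0.78, and without the 2 top copies they were 0.90, 0.65 and 0.79.

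By adjusted p at any fold change (edgeR, Benjamini-Hochberg), 10 ORR1 families were higher and 2 were lower in *Terc*-/- ESCs, where 13.2% of all families were higher and 11.6% lower. Beside the 4 above, the higher families were ORR1A2-int with a log2 fold change of 0.35 and the LTRs ORR1A0 with 0.35, ORR1A1 with 0.48, ORR1A2 with 0.11, ORR1A3 with 0.21 and ORR1G with 0.20. All of them but ORR1G carry the letter A. The lower families were ORR1D1 with −0.16 and its internal part ORR1D1-int with −0.30. Single copies weighed on several of these values. The top copy of ORR1A1 held 28.5% of its counts and that of ORR1D1-int 56.7%, and without them the log2 fold changes were 0.24 (adjusted p = 0.0879, edgeR) and −0.16 (adjusted p = 0.185, edgeR), so that both calls were lost. Without the 2 top copies, ORR1A1 was called again (0.21, adjusted p = 0.0393, edgeR). For ORR1G, the 2 top copies held 45.4% of the counts and the log2 fold change without them was −0.0036. The call of ORR1G was also lost without its top copy (0.12, adjusted p = 0.146, edgeR), with the replicate number as a block (0.20, adjusted p = 0.0541) and without *Terc*-/- replicate 2 (0.15, adjusted p = 0.0669).

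The 6 ORR1 families with the most counts were LTR families, a ranking that also follows copy number and copy length, and copy lengths were not known. ORR1D1, with 21507 copies, had 6906 and 6940 counts in WT and 6437 and 5522 in *Terc*-/- ESCs, or 3386 ± 45.4 and 3034 ± 21.5 CPM (SD, n = 2 each). After scaling to depth, both *Terc*-/- libraries were below both WT libraries. The adjusted p of this fall of ORR1D1 was 0.00372 in edgeR with Benjamini-Hochberg adjustment, but with TE counts scaled by the gene counts the log2 fold change was −0.086 and the call was lost (adjusted p = 0.275, edgeR). ORR1A2 had 4647 and 4630 counts in WT and 5288 and 4392 in *Terc*-/- ESCs, or 2269 ± 44.2 and 2453 ± 73.4 CPM (SD, n = 2 each). Its groups did not overlap either, in the opposite direction, with an adjusted p of 0.042 (edgeR, Benjamini-Hochberg). That call of ORR1A2 was lost without its top copy (0.07, adjusted p = 0.22), without its 2 top copies (0.07, adjusted p = 0.2), with DESeq2 (0.12, adjusted p = 0.0665) and with the replicate block (0.11, adjusted p = 0.0794). It was also lost without WT replicate 1 (0.13, adjusted p = 0.0885, edgeR), WT replicate 2 (0.09, adjusted p = 0.268) or *Terc*-/- replicate 1 (0.08, adjusted p = 0.0717).

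The remaining large families had log2 fold changes near 0. ORR1E had 5003 and 5175 counts in WT and 5493 and 4564 in *Terc*-/- ESCs, with a log2 fold change of 0.03 (SE 0.034). Without its top copy it was −0.11 (unadjusted P = 0.0064, edgeR). Without its 2 top copies it was −0.12 (unadjusted P = 0.00285, edgeR). In that last fit ORR1E passed adjusted p as lower, since ORR1A1 passed at a larger P of 0.00727. ORR1B1 had 4600 and 4638 counts in WT and 4943 and 4126 in *Terc*-/- ESCs, with a log2 fold change of 0.03 (SE 0.035). The scaled levels of the genotypes overlapped for both. ORR1F had 4339 and 4362 counts in WT and 4696 and 3933 in *Terc*-/- ESCs, with a log2 fold change of 0.04 (SE 0.035) that was −0.00034 without its top copy. ORR1A4 had 4226 and 4333 counts in WT and 4759 and 3953 in *Terc*-/- ESCs, with a log2 fold change of 0.08 (SE 0.035). With all copies and libraries included, none of these 4 passed the test by adjusted p (edgeR, Benjamini-Hochberg). That does not show that they were alike in both genotypes. Without *Terc*-/- replicate 2, the log2 fold change of ORR1A4 was 0.11.

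Among the LTR families with fewer counts, mean levels in WT and *Terc*-/- ESCs were 793 and 1008 CPM for ORR1A0, 999 and 1389 for ORR1A1, 905 and 1043 for ORR1A3, and 723 and 830 for ORR1G. With ORR1A2 and ORR1D1, these are the LTR families called by adjusted p at any fold. The means were 1296 and 1195 for ORR1B2, 1454 and 1470 for ORR1C1, 1564 and 1504 for ORR1C2, and 1894 and 2066 for ORR1D2. Their log2 fold changes were −0.12, 0.02, −0.06 and 0.12, none past adjusted p (edgeR, Benjamini-Hochberg). Without the 2 top copies, ORR1D2 was at 0.18 and ORR1B2 at −0.14, with unadjusted P of 8.96e-05 and 0.00638 in edgeR. Both passed adjusted p there, since ORR1A1 passed at 0.00727. Without *Terc*-/- replicate 1, ORR1D2 was at 0.18. When TE counts were scaled by the gene counts, ORR1C2 was at 0.015 and ORR1D2 at 0.20. ORR1D2 (unadjusted P = 0.00567, edgeR) also passed with this scaling, since ORR1D1-int passed at 0.00668. That scaling moved the median of all families from −0.0046 to 0.064.

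Among the internal parts other than the 4 past the fold cutoff, mean levels were 776 and 988 CPM for ORR1A2-int, 1284 and 1383 for ORR1A4-int, 819 and 876 for ORR1B1-int and 481 and 390 for ORR1D1-int. Those of ORR1A4-int and ORR1B1-int had log2 fold changes of 0.11 and 0.10. Without the 2 top copies these were 0.15 and 0.18, with unadjusted P of 0.00518 and 0.002 in edgeR. Both passed adjusted p there, since ORR1A1 passed at 0.00727. The others were lower in level, at 65.4 and 70.8 for ORR1B2-int, 151 and 128 for ORR1C2-int, 196 and 209 for ORR1D-int, 256 and 284 for ORR1D2-int, 183 and 189 for ORR1E-int, and 35.7 and 48.9 for ORR1F-int. Their log2 fold changes were 0.12, −0.25, 0.09, 0.15, 0.04 and 0.46. The value of ORR1F-int had an SE of 0.17 and an adjusted p of 0.0804 in edgeR (Benjamini-Hochberg), so that it was not called in this fit. With TE counts scaled by the gene counts, ORR1F-int was at 0.53 and ORR1A4-int at 0.18. Their unadjusted P there was 0.00959 and 0.00681 in edgeR, where ORR1D1-int passed adjusted p at a P of 0.00668. ORR1G-int had 2 and 1 counts in WT and 1 and 4 in *Terc*-/- ESCs and was too low to test.

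An internal part and the LTRs of the same name lie in the same elements when an element is complete, whereas most LTR copies in a genome are solo LTRs without an internal part. Whether both changed to the same extent was therefore tested for 45 names of all repeats that have both, with the difference of their log2 fold changes, a comparison added after the data were seen. The internal part had the higher log2 fold change in 4 of 13 ORR1 names and the lower one in 0 by adjusted p (edgeR, Benjamini-Hochberg over the 45 names), where 15.6% of the 45 names were called in the first direction and 13.3% in the second. The 45 names include these 13, so that ORR1 itself makes up much of the first share. DESeq2 was not run on this comparison, and 1 of the 13, ORR1D1, had a lower internal part at an unadjusted P under 0.05.

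The difference between internal part and LTR was 0.53 for ORR1A0 (adjusted p = 8.3e-10), 0.55 for ORR1A3 (adjusted p = 6.55e-08), 0.24 for ORR1A2 (adjusted p = 0.000273) and 0.83 for ORR1C1 (adjusted p = 8.57e-17), each from edgeR with Benjamini-Hochberg adjustment. In these subfamilies the internal parts thus moved more than the LTRs. Without the 2 top copies of each family the differences were 0.39, 0.57, 0.21 and 0.13, and that of ORR1C1 was no longer called (adjusted p = 0.645, edgeR). The call of ORR1A2 was lost without either *Terc*-/- library, where the differences stayed at 0.23 (adjusted p = 0.151) without replicate 1 and 0.24 (adjusted p = 0.086) without replicate 2. For ORR1A1 the difference was 0.14 (adjusted p = 0.209), but 0.45 (adjusted p = 0.00195, edgeR) without the 2 top copies of each family. Among the other names it lay between −0.19 for ORR1C2 and 0.42 for ORR1F, with SEs of 0.12 and 0.17. Without WT replicate 1, the internal part was called lower for ORR1D1 (−0.17, adjusted p = 0.0244, edgeR) and higher for ORR1F (0.53, adjusted p = 0.0245). Without WT replicate 2, it was called lower for ORR1C2 (−0.27, adjusted p = 0.0366, edgeR) and higher for ORR1A1 (0.17, adjusted p = 0.044).

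At the level of single copies, a larger share of the internal parts of ORR1A than of the ORR1 copies as a whole was higher in *Terc*-/- ESCs, a difference that was not tested. Of 6550 ORR1 copies tested, 425 (6.49%) were higher and 227 (3.47%) lower in *Terc*-/- ESCs at a fold change over 2 and an unadjusted P under 0.05. Over all 176114 TE copies tested, 4.7% were higher and 3.87% lower. The ORR1 LTR copies were close to that background, with 266 of 5349 (4.97%) higher and 200 (3.74%) lower. Of the 1201 copies of internal parts, 159 (13.2%) were higher and 27 (2.25%) lower, and of the 702 copies of ORR1A internal parts 140 (19.9%) were higher and 13 (1.85%) lower. ORR1A LTR copies were higher in 116 of 1555 cases (7.46%) and lower in 47 (3.02%). The counts of ORR1 copies depended on the *Terc*-/- libraries, with 146 higher (2.23%) and 142 lower (2.17%) without replicate 1, beside 1.65% and 2.94% of all copies. Without replicate 2 they were 177 (2.70%) and 153 (2.34%), beside 1.93% and 2.60% of all copies. They also depended on the test, with 160 higher (2.44%) and 62 lower (0.947%) in DESeq2, beside 1.60% and 1.01% of all copies. With the replicate number as a block, 279 (4.26%) were higher and 132 (2.02%) lower, beside 3.08% and 2.28% of all copies.

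By adjusted p at a fold change over 2 (edgeR, Benjamini-Hochberg over all copies), 66 ORR1 copies (1.01%) were higher and 21 (0.321%) lower, against 0.634% and 0.366% of all copies. Of the 66, 36 were internal parts of ORR1A, and 21 of those belonged to ORR1A0-int. DESeq2 gave 37 higher (0.565%) and 12 lower (0.183%) by the same rule, beside 0.290% and 0.212% of all copies. The newer setting of edgeR, an alternative chosen after seeing the data, gave 11 (0.168%) and 1 (0.0153%), beside 0.0738% and 0.0823% of all copies. By adjusted p, edgeR called 49 higher (0.748%) and 14 lower (0.214%) without WT replicate 1, beside 0.392% and 0.277% of all copies, and 37 (0.565%) and 13 (0.198%) without WT replicate 2, beside 0.397% and 0.249%. It called 0 ORR1 copies, as well as 0 of all TE copies, without either *Terc*-/- library. In ORR1 copies with at least 20 counts, the median log2 fold change was 0.43 over 428 internal parts and 0.02 over 1573 LTRs, beside −0.0045 over all 54163 such copies.

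The ORR1A0-int copies carried this pattern most broadly. Of 456 listed copies, 250 had counts and 153 were tested, of which 54 (35.3%) were higher and 1 was lower at the cutoff of fold 2 and unadjusted P. For ORR1A1-int the numbers were 24 higher and 1 lower of 100, and for ORR1A3-int 39 higher and 3 lower of 162. In ORR1A2-int 20 of 178 copies were higher and 4 lower, and in ORR1A4-int 3 of 109 were higher and 4 lower. In ORR1C1-int 2 of 27 copies were higher and 0 lower, and copy 729 was 1 of the 2.

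The ORR1 copies with the most counts differed in behaviour. ORR1C1 copy 1924 had 929 and 950 counts in WT and 913 and 698 in *Terc*-/- ESCs, with a log2 fold change of −0.12 (SE 0.094, adjusted p = 0.762, edgeR). ORR1E copy 967 had 580 and 645 counts in WT and 1145 and 854 in *Terc*-/- ESCs, with a log2 fold change of 0.80 (SE 0.098, adjusted p = 1.1e-08, edgeR), which stayed under the fold cutoff for copies. The first copy did not pass the test, and the second was higher in both *Terc*-/- libraries. The ORR1C1-int copies 728 and 729 were chosen after their values were seen. Copy 728 had 450 and 425 counts in WT and 821 and 724 in *Terc*-/- ESCs, a log2 fold change of 0.92, under the fold cutoff for copies. Copy 729 had 322 and 288 counts in WT and 616 and 586 in *Terc*-/- ESCs, a log2 fold change of 1.08 that was 1.00 and just under the fold cutoff without WT replicate 2. Both copies were higher in both *Terc*-/- libraries, and whether their consecutive numbers mean neighbouring positions in the genome is not stated.

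Among ORR1 copies with at least 80 counts and an adjusted p under 0.05, the largest rise was that of ORR1D2 copy 4966, and some copies with fewer counts had larger fitted changes in either direction. It had 1 and 3 counts in WT and 54 and 36 in *Terc*-/- ESCs, with a log2 fold change of 4.50 (SE 0.51, adjusted p = 1.48e-09, edgeR). This copy was nearly silent in WT, and its log2 fold change was 3.96 without WT replicate 1 and 5.41 without WT replicate 2. ORR1D2 as a family narrowly missed the call at 0.12 (adjusted p = 0.0517, edgeR). It passed adjusted p without its 2 top copies (0.18, unadjusted P = 8.96e-05, edgeR) and with TE counts scaled by the gene counts (0.20). With DESeq2 size factors and without a filter, its unadjusted P in edgeR was 0.0099 and 0.00912. ORR1A2-int copy 2008 came next and had 4 and 6 counts in WT and 40 and 44 in *Terc*-/- ESCs, a log2 fold change of 3.15 (SE 0.43). ORR1A1 copy 2881 had 5 and 6 counts in WT and 42 and 35 in *Terc*-/- ESCs, a log2 fold change of 2.88 (SE 0.43). In both, the *Terc*-/- libraries were far above the WT libraries.

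The other 3 of the 6 largest rises among these copies were in ORR1A0-int. Copy 399 had 6 and 8 counts in WT and 42 and 30 in *Terc*-/- ESCs, a log2 fold change of 2.44 (SE 0.42). Copy 172 had 14 and 6 counts in WT and 55 and 27 in *Terc*-/- ESCs, a log2 fold change of 2.11 (SE 0.39). Copy 4 of ORR1A0-int had 11 and 6 counts in WT and 43 and 24 in *Terc*-/- ESCs, a log2 fold change of 2.06 (SE 0.42). The genotypes did not overlap in any of them, but the replicates spread widely, and without *Terc*-/- replicate 1 copies 172 and 4 also missed an unadjusted P of 0.05, at log2 fold changes of 1.61 and 1.67. Copy 172 was at 2.85 without WT replicate 1, and copy 4 missed the adjusted p without WT replicate 2 (1.68, adjusted p = 0.061, edgeR).

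Among the same copies with at least 80 counts, the 6 largest falls were in LTR copies, in ORR1A4, ORR1B2, ORR1C2 and ORR1E. ORR1A4 copy 3445 had 73 and 89 counts in WT and 25 and 23 in *Terc*-/- ESCs, a log2 fold change of −1.65 (SE 0.25, adjusted p = 6.75e-06, edgeR). ORR1B2 copy 1418 had 110 and 120 counts in WT and 25 and 46 in *Terc*-/- ESCs, a log2 fold change of −1.58 (SE 0.23) that was −2.17 without *Terc*-/- replicate 2. In both copies the WT libraries were well above the *Terc*-/- libraries. ORR1C2 copy 3415 had 55 and 53 counts in WT and 25 and 16 in *Terc*-/- ESCs, a log2 fold change of −1.29 (SE 0.29).

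The 3 others were ORR1E copies. Copy 2085 had 25 and 40 counts in WT and 10 and 9 in *Terc*-/- ESCs, a log2 fold change of −1.66 (SE 0.41). Copy 3160 of ORR1E had 47 and 41 counts in WT and 15 in each *Terc*-/- library, a log2 fold change of −1.44 (SE 0.33). Copy 8775 had 114 and 128 counts in WT and 53 and 39 in *Terc*-/- ESCs, a log2 fold change of −1.29 (SE 0.20). All 3 ORR1E copies were lower in both *Terc*-/- libraries, while copy 967 of the same family was higher. Copy 2085 also missed an unadjusted P of 0.05 without *Terc*-/- replicate 1 or without replicate 2, at log2 fold changes of −1.65 and −1.67. Of the 12 copies named for their rise or fall, 10 passed the adjusted p (edgeR, Benjamini-Hochberg) without WT replicate 1 and 10 without WT replicate 2, but 0 without either *Terc*-/- library, as for all TE copies. With DESeq2 10 of the 12 passed, and ORR1E copies 2085 (adjusted p = 0.0841) and 3160 (adjusted p = 0.0539) did not. With the newer setting of edgeR 3 of the 12 passed, namely ORR1D2 copy 4966 (adjusted p = 0.024), ORR1A2-int copy 2008 (adjusted p = 0.0425) and ORR1A1 copy 2881 (adjusted p = 0.0437), while the other 9 lay between 0.0696 and 0.325.

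Counts in a single genotype were about as rare on ORR1 copies as on all TE copies. With 0 counts in both libraries of a genotype and at least 5 in each library of the other, 6 ORR1 copies (0.0916%) had counts in *Terc*-/- ESCs alone and 2 (0.0305%) in WT ESCs alone. Over all copies tested, such copies made up 0.112% in the first direction and 0.063% in the second. The 6 were ORR1A3-int copies 874 (12 and 5 counts) and 156 (7 and 5), ORR1A0-int copy 214 (5 and 12), ORR1A1-int copy 813 (5 and 6), ORR1A2 copy 7132 (5 and 5) and ORR1D2 copy 4371 (5 and 5). The 2 with counts in WT alone were ORR1F copies 10246 (9 and 8) and 10247 (7 and 5), which have consecutive numbers. All 8 were below 10 counts in at least 1 library, a depth at which a low level in the other genotype was not detectable. All 8 were named after their values were seen.

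MT elements are the other large group of rodent MaLRs and were summarised beside ORR1 without a test of the difference. Over their 9 LTR names the median log2 fold change was −0.03 and over their 11 internal parts 0.05, where the 14 ORR1 LTR names had 0.06 and the 14 tested ORR1 internal parts 0.13. The share of MT internal parts in the TE counts was 0.608% and 0.582% in WT and 0.682% and 0.685% in *Terc*-/- ESCs, a ratio of 1.15 where that of the ORR1 internal parts was 1.35. No MT name was called at a fold change over 1.5 in edgeR or DESeq2. At any fold and an unadjusted P under 0.05, edgeR called 3 MT LTR names higher and 1 lower, and 2 MT internal parts higher and 2 lower, beside 6 and 2 of the ORR1 LTR names and 7 and 2 of the ORR1 internal parts, where 18.2% of all families were higher and 18.1% lower. Of the MT LTR copies tested 4.07% were higher and 4.41% lower, and of the MT internal parts 7.09% and 3.66%. For ORR1 the shares were 4.97% and 3.74% of LTRs and 13.2% and 2.25% of internal parts, and over all copies 4.7% and 3.87%. In the older MLT1 group of MaLRs, the median was −0.016 over 29 LTR names and −0.12 over the 10 internal parts tested.

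ERVL elements, whose enzymes MaLRs are thought to use, are represented by MERVL-int and its LTR MT2_Mm. MERVL-int had 1374 and 1365 counts in WT and 7585 and 6257 in *Terc*-/- ESCs, a log2 fold change of 2.39 (SE 0.041), and MT2_Mm had 1099 and 1096 counts in WT and 2931 and 2557 in *Terc*-/- ESCs, a log2 fold change of 1.38 (SE 0.044). Their summed share went from a mean of 0.119% to 0.499% of the TE counts, a ratio of 4.21, so that their rise was larger than that of any ORR1 family, a difference that was not tested.

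Genes known to silence or to activate ERVL and MaLR elements and the two-cell state were listed by function. Of 35 silencing genes, all of them tested, 0 were higher and 1 was lower in *Terc*-/- ESCs at a fold change over 2 and an unadjusted P under 0.05 in edgeR, and DESeq2 gave the same counts. Over all genes 4.73% were higher and 3.13% lower. At any fold, 8 silencing genes were higher and 12 lower at an unadjusted P under 0.05 in edgeR, where 25% of all genes were higher and 24.8% lower. The lower gene was *Dnmt3b*, a de novo DNA methyltransferase, which had 11230 and 11596 counts in WT and 5129 and 4405 in *Terc*-/- ESCs. Its level fell by 1.13 on the log2 scale (SE 0.049, adjusted p = 1.59e-22, edgeR). *Smarcad1*, a chromatin remodeler, had 3654 and 3828 counts in WT and 1805 and 1704 in *Terc*-/- ESCs. Its log2 fold change of −0.96 just missed the fold cutoff and passed it, at −1.06, without *Terc*-/- replicate 2. The authors report that part of a chromosome was lost in G3 *Terc*-/- ESCs. Gene positions were not used here, and whether that loss covers *Smarcad1* or other listed genes was not tested. By adjusted p at any fold (edgeR, Benjamini-Hochberg), 7 silencing genes were higher and 10 lower, where 21.7% of all genes were higher and 21.8% lower. The median log2 fold change of the silencing genes was −0.07, beside 0.0063 over all genes.

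Of 14 activating genes listed, 12 were matched to the counted genes and 10 had enough counts. *Dux*, also listed as *Duxf3*, is the factor that turns on MERVL at the two-cell stage and was not among the counted genes under either name. Of the 10, 3 were higher and 1 lower at the cutoff, where 4.73% of all genes were higher and 3.13% lower, and the higher genes were paralogs of *Zscan4*, a marker of the two-cell-like state of ESCs. *Zscan4d* had 18 and 22 counts in WT and 243 and 234 in *Terc*-/- ESCs, a log2 fold change of 3.70 (SE 0.21). *Zscan4c* had 25 and 26 counts in WT and 221 and 165 in *Terc*-/- ESCs, a log2 fold change of 3.03 (SE 0.21), and *Zscan4f* had 19 and 27 in WT and 180 and 131 in *Terc*-/- ESCs, a log2 fold change of 2.87 (SE 0.23). These paralogs are nearly alike in sequence, so their counts may not be separate and the 3 genes are not independent. *Dppa3*, a maternal factor that also marks naive ESCs, had 1234 and 1293 counts in WT and 515 and 477 in *Terc*-/- ESCs, and its level fell by 1.22 on the log2 scale (SE 0.076). *Smad7*, an inhibitor of TGF-beta signalling, had 1519 and 1809 counts in WT and 3094 and 2511 in *Terc*-/- ESCs, a log2 fold change of 0.87 (SE 0.062). By adjusted p at any fold, 5 activating genes were higher and 3 lower (edgeR, Benjamini-Hochberg), where 21.7% of all genes were higher and 21.8% lower, and the median log2 fold change of the list was 0.36.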

How the data were processed

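Poly(A) RNA-seq of 2 WT and 2 *Terc*-/- ESC libraries was analysed. The authors aligned reads to mm10 and deposited raw counts per gene and per TE copy. Trim Galore, STAR and featureCounts are named in the submitters' processing notes without versions. The strand setting, the repeat annotation and the positions of copies were not stated, so no sequence is shown and ORR1 copies inside transcripts of genes were not set apart. Single copies were counted from uniquely mapped reads.

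Counts were summed by repeat name and tested with edgeR 4.0.16 in R 4.3.3 (TMM, quasi-likelihood, genotype as the only term). Families and genes were filtered with filterByExpr, and copies needed 5 counts over the 4 libraries. Adjusted p-values are Benjamini-Hochberg over all features tested. The SE is the absolute log2 fold change divided by the square root of the F statistic. Internal parts and LTRs were compared with library, part and part by genotype as terms.

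Families named in full are the 6 with the most counts and those called by adjusted p at fold 1.5. Copies named are the 2 with the most counts and the 6 with the largest change in each direction among those with an adjusted p under 0.05 and at least 80 counts. Genes named are those called and up to 3 per direction with the smallest p. Members and lists were chosen with earlier results of these data known. Alternatives were DESeq2 1.42.0, its size factors, a replicate block, other filters, scalings and thresholds, top copies left out and each library left out. Added after the data were seen were the comparison of internal parts with LTRs, the 2 top copies left out, and edgeR's newer quasi-likelihood setting (legacy = FALSE).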

Additional observations from a re-analysis of the deposited data

How the results depend on the processing

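The 4 ORR1 families called higher were called with DESeq2, with its size factors, with a replicate block, without a filter, with at least 100 counts, with gene-count scaling, without top copies and with legacy = FALSE. The exceptions were ORR1C1-int without the 2 top copies (0.18) and ORR1A1-int without *Terc*-/- replicate 1 (0.57). With each library left out in turn, 3 to 4 were higher and 0 lower. By adjusted p at any fold the counts were 10 and 2, which follows from dropping the fold cutoff.

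The ORR1 copies called (425 higher, 227 lower) fell to 160 and 62 with DESeq2 and to 279 and 132 with the replicate block, for which the cause was not tested. The deviations of same-numbered libraries of both genotypes had a correlation of 0.177 over ORR1 families and −0.047 over all families. Fewer copies were tested with the 2 stricter filters. With filterByExpr, 119 of 1138 ORR1 copies (10.5%) were higher and 66 (5.8%) lower, beside 7.27% and 5.97% of all copies tested. With at least 20 counts, 175 of 2001 (8.75%) were higher and 98 (4.9%) lower, beside 6.65% and 5.44%. The adjusted p called 66 and 21. Leaving out a library, which leaves 1 in a group that is assumed to vary like the other, gave 146 to 328 higher and 142 to 213 lower. With any library left out, fewer of all TE copies were called as well, in both directions. The share called higher stayed larger for ORR1 copies than for all copies in each of these fits. The share called lower was larger for ORR1 copies only without WT replicate 1. The 66 and 21 by adjusted p became 37 and 12 with DESeq2 and 11 and 1 with legacy = FALSE, while those of all TE copies went from 1117 and 644 to 511 and 374 and to 130 and 145, and the cause was not tested. The ORR1 counts by adjusted p rose to 79 (6.94%) and 37 (3.25%) with filterByExpr, beside 4.4% and 3.23% of all copies tested. With at least 20 counts they were 92 (4.6%) and 39 (1.95%), beside 3.01% and 1.99%. Copies with counts in *Terc*-/- ESCs alone numbered 0 with at least 10 counts and 28 when 1 count was allowed in WT, and those in WT ESCs alone 0 and 8.

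Several changes turned direction, and the cause was not tested. Without the top copy, ORR1E was at −0.11 (unadjusted P = 0.0064, edgeR) and ORR1F at −0.00034. Without the 2 top copies, ORR1D2-int was at −0.053, ORR1E at −0.12 and ORR1G at −0.0036. There ORR1E had an unadjusted P of 0.00285 (edgeR) and passed adjusted p as lower, since ORR1A1 passed at a larger P of 0.00727. In the same setting, the difference between internal part and LTR was 0.020 for ORR1C2 and −0.24 for ORR1D2. With gene-count scaling ORR1C2 was at 0.015. With each library left out, ORR1B1 ranged from −0.00026 to 0.055, ORR1B2-int from −0.020 to 0.26 and ORR1E-int from −0.055 to 0.15, and the difference between parts from −0.039 to 0.097 for ORR1D2 and from −0.083 to 0.11 for ORR1E.

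The gain in share, 0.186 percentage points for LTRs and 0.218 for internal parts, was 0.0269 and 0.0236 percentage points of the gene counts, where the LTR gain was the larger one. Relative to gene counts, all TE counts came to 9.33% and 9.35% in WT and 9.43% and 10% in *Terc*-/- ESCs. It lay between 0.148 and 0.224 for LTRs and between 0.21 and 0.227 for internal parts with each library left out. Regulator genes numbered 3 higher and 2 lower at fold 2 and unadjusted P, 3 higher and 2 to 3 lower at that cutoff with each library left out, and 12 higher and 13 lower by adjusted p at any fold.

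The replicates of a genotype differed beyond sampling noise, with a chi-square per ORR1 copy of 1.49 in WT and 1.43 in *Terc*-/- ESCs. Most ORR1 copies had fewer than 20 counts (2001 of 6550 had more or as many), so small changes of single copies were not detectable.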

Other observations

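ORR1 copies with consecutive numbers of the same name were looked at after the data were seen. Of 120 ORR1 copies past adjusted p at any fold change (edgeR, Benjamini-Hochberg), 22 had a copy with the next or previous number that passed as well, and all 22 changed in the same direction as that copy. Over all TE copies, 435 of 2255 past the same test (19.3%, beside 18.3% of the ORR1 copies) had such a neighbour, and 99.5% of these changed in its direction, so that ORR1 copies were near the background in both. ORR1A2-int copy 2008 stood beside copy 2009, with 1 count in each WT library and 21 and 18 in the *Terc*-/- libraries, and copy 2010, which had 1 and 3 counts in WT but 20 and 17 in *Terc*-/- ESCs. All 3 were thus higher in both *Terc*-/- libraries. ORR1A0-int copy 172 stood beside copy 171, which had 4 counts in each WT library and 39 and 24 in the *Terc*-/- libraries. In the other direction, ORR1D2 copies 11663 and 11664 had 178 and 234 counts in WT replicate 1, 182 and 234 in WT replicate 2, 86 and 110 in *Terc*-/- replicate 1 and 132 and 159 in *Terc*-/- replicate 2. These ORR1D2 copies fell by 0.61 and 0.69 on the log2 scale. Whether copies with consecutive numbers lie next to each other in the genome or in the same transcript is not stated with the deposited counts.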
